A study of Mus musculus with 13 samples.

Results

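The genes described here encode the nuclear part of the mitochondrial respiratory chain and the ATP synthase. Members were chosen by name from the table of log2 CPM (reads per gene scaled to a common library size), as symbols beginning with Nduf, Cox4 to Cox8, Uqcr, Atp5 or Sdha to Sdhd. Of 25965 genes in the table, 93 had such a name, of which 1 was a pseudogene name (Atp5l-ps1). Genes then had to average 0 or more on the log2 scale across the 12 libraries harvested on days 4 to 7, which 13406 genes of the table did. The 89 members that passed comprised 40 genes of complex I (7 core subunits, 29 accessory subunits and 4 assembly factors), 6 of complex II (4 subunits and 2 assembly factors), 8 of complex III, 17 of complex IV and 15 of complex V. Atp5s and Atp5sl carried an Atp5 name without being counted as synthase subunits, and Cox4nb entered by its name alone. The 3 names below the filter were tissue isoforms of complex IV, namely Cox6a2 at a mean log2 CPM of -4.74, Cox8b at -5.32 and Cox8c at -2.61.

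Complexes I to IV of the inner mitochondrial membrane pass electrons from NADH and succinate to oxygen and, except for complex II, pump protons, and complex V uses the proton gradient to make ATP. Complexes I, III, IV and V are built from subunits of both the nuclear and the mitochondrial genome, whereas all subunits of complex II are nuclear. Several subunits of complex IV exist as alternative isoforms from separate genes, some of which are best known from muscle, testis or cells short of oxygen. The use of glycolysis and respiration is known to change as pluripotent stem cells differentiate.

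The cells were female mouse embryonic stem cells (mESCs) from an F1 cross of FVB/NJ dams and CAST/EiJ sires, so that every library shared this hybrid genotype. They were expanded in 2i medium, which holds mESCs in the naive state, and differentiated by weaning into DME HiHi medium. On day 2 the cells received a short hairpin by viral transduction, and puromycin selection followed on day 3. Nons carried a nonsilencing hairpin, and Smarcc1.6 and Smarcc1.7 carried hairpins against Smarcc1, which encodes a scaffold protein of the BAF chromatin remodeller. Each of these groups was represented by 1 library on each of days 4, 5, 6 and 7, and Day0 by 1 undifferentiated library without a hairpin. The comparison of the hairpins with Nons asked how expression depended on Smarcc1 while X chromosome inactivation was being established. With 1 library per group and day, the days served as replicates of a group and the groups as replicates of a day, and nothing in the labels says whether the days came from separate cultures, so p-values measured only the spread between these libraries.

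The shallowest library, Smarcc1.7 on day 5, had 13993440 mapped reads and the deepest, Smarcc1.6 on day 4, had 63548092. Smarcc1 itself had a log2 CPM of 9.10, 8.87, 8.28 and 7.89 on days 4, 5, 6 and 7 in Nons, of 7.42, 7.40, 7.28 and 7.28 in Smarcc1.6, and of 7.96, 7.78, 7.17 and 7.51 in Smarcc1.7. On each day both hairpin libraries lay below Nons, and over days 4, 5 and 7 Smarcc1 fell by 1.06 on the log2 scale (SE 0.18, adjusted p = 0.0256, limma). Pluripotency markers were present in all libraries, but most fell with time. Of the 8 markers 6 were called lower and 0 higher on day 7 than on day 4 (median -2.69). Of all genes tested 30.7% were called lower. Sox2, for instance, went from 7.78 to 3.69 log2 CPM in Nons between those days, whereas Pou5f1 stayed between 9.55 and 10.58 on days 4 to 7. The summed level of the 7 cardiac and smooth muscle markers, 2.60 log2 CPM in Day0, reached between 9.91 and 10.27 at its highest in each group. Most of this sum was Tagln, at 9.60, 9.91 and 9.86 on day 7 in Nons, Smarcc1.6 and Smarcc1.7. Acta2, Cnn1 and Actc1 also rose from day 4 to day 7. In contrast, Tnnt2 and Myh6 fell in each group, and Myl7 rose only in Nons. By day 7 the libraries thus held RNA of some marker genes of differentiated cells too. In such bulk libraries, fewer cells of a type and less RNA per cell cannot be told apart. Day 6 and Day0 differed from the other libraries in how reads were divided between genes and their processed copies, and 11 members were lower on day 6 by 1 log2 unit or more in all groups. Comparisons were therefore made on the 9 libraries of days 4, 5 and 7, with day or group as a block, and day 6 and Day0 are described separately.

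The members were expressed at moderate to high levels. Together they took between 0.966% and 1.15% of the CPM on days 4, 5 and 7, and 1.45% in Day0. Atp5b, the catalytic beta subunit of the ATP synthase, was the highest of complex V with a mean of 10.99 log2 CPM over days 4 to 7, or 10.05 per kilobase of its shortest principal transcript. Per kilobase, the median member of complex IV stood at 7.19 log2 CPM, that of complex V at 7.00, that of complex III at 6.79 and that of complex II at 6.19. The core and accessory subunits of complex I had lower medians of 5.83 and 5.81 log2 CPM per kilobase, and its 4 assembly factors 3.21. Complex IV had the widest spread, from 8.68 log2 CPM per kilobase for Cox4i1, the ubiquitous form of its regulatory subunit 4, down to 0.93 for the alternative form Cox4i2. The day 6 values enter these means and medians and lower them for the 11 members that were low on that day. Among them was Ndufb4, whose 3.71 log2 CPM per kilobase was the lowest of the accessory subunits. Also among them were Atp5g1, which is the median member of complex V, and Atp5g2, Atp5h and Atp5l of the same complex. The order of the complexes by median may therefore not hold without day 6.

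Smarcc1 knockdown left all but 1 of the 89 members below the threshold. Cox7a1 was called higher and 0 members were called lower, where knockdown raised 1.62% and lowered 0.522% of all genes tested (217 and 70 of 13406). At an unadjusted p under 0.05 there were 5 members (5.62%), 3 of them higher, against 19.7% of all genes tested. The median log2 difference of the members was -0.01, as was that of all genes tested, and 41 of 89 members had a positive difference. In simulated data with the same libraries, 79% of genes changed by 0.5 and 100% of those changed by 1 on the log2 scale were called. The simulation gave every gene the same spread and had no differences between days or between hairpins. Spread in the real libraries varied between genes, so differences of these sizes, and not only smaller ones, could have been missed.

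**Figure D1:**
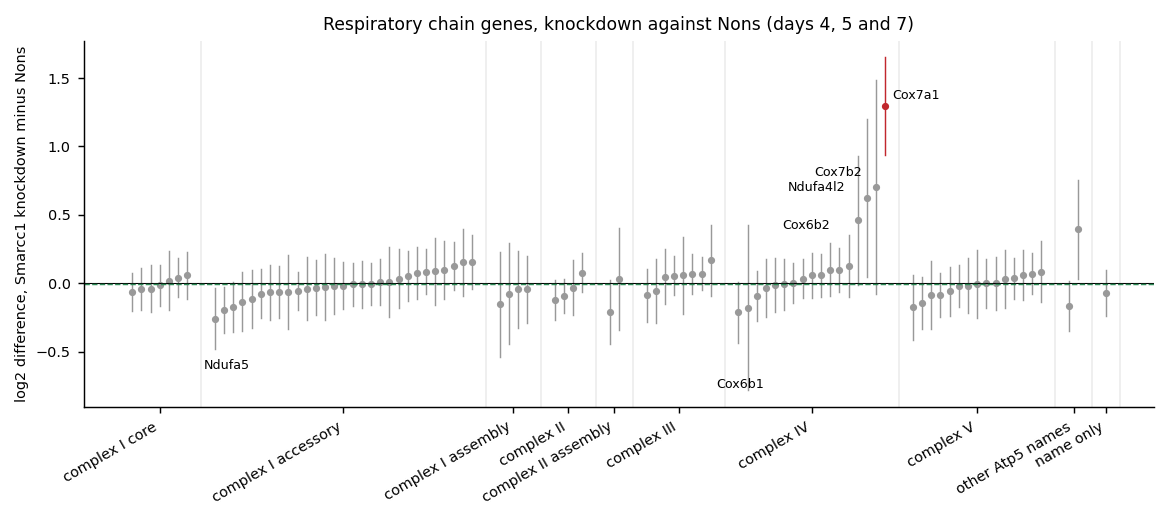
Fitted log2 difference of each member between the Smarcc1 knockdown libraries (6) and Nons (3) on days 4, 5 and 7, ordered by size within each complex. Bars are 95% confidence intervals, red marks an adjusted p under 0.05 and the dashed line is the median of all genes tested. Cox7a1 at 1.29 stands above the rest, and most other members lie within 0.25 of 0.

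Cox7a1 (chr7:30184171-30186028, plus strand, GRCm38) encodes the heart and skeletal muscle form of subunit 7a of complex IV. Its log2 CPM in Nons was 1.36 on day 4, 0.92 on day 5, 1.64 on day 6 and 1.77 on day 7. In Smarcc1.6 it was 2.96, 2.33, 2.63 and 3.03 on the same days, and in Smarcc1.7 it was 2.46, 2.17, 2.74 and 2.91. Every knockdown library lay above every Nons library, also on day 6, and Day0 was higher still at 4.02. Among the members only Cox7a1 separated the groups in this way on days 4, 5 and 7, as did 0.619% of all genes tested, and 0 members lay below every Nons library (0.515% of all genes). The fitted difference was 1.29 (SE 0.16, 95% confidence interval 0.94 to 1.65, adjusted p = 0.0218, limma with Benjamini-Hochberg adjustment). The call rested on few libraries, since the adjusted p was 0.0545 without the Smarcc1.6 library of day 4 and 0.0932 without the Nons library of day 5, at differences of 1.22 and 1.28. Without day as a block it was lost as well (adjusted p = 1), and with all 12 libraries of days 4 to 7 the difference was 1.23 (adjusted p = 0.00127). Its depth was modest, between 63 and 493 reads on days 4, 5 and 7.

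With each hairpin Cox7a1 was higher than in the shared Nons libraries. The difference was 1.42 for Smarcc1.6 (adjusted p = 0.0142) and 1.17 for Smarcc1.7 (adjusted p = 0.139, unadjusted p = 0.000131). Between the hairpins it was 0.25, with a 95% confidence interval of -0.15 to 0.66. Cox7a1 was the only member called for Smarcc1.6, where 1.51% of all genes tested were called, and no member was called for Smarcc1.7, where 0.00746% (1 gene) was. At an unadjusted p under 0.05 in limma the numbers of members were 4 and 7 (4.49% and 7.87%), against 17.6% and 12.2% of all genes. The call for Smarcc1.6 was lost without the library of Smarcc1.6 on day 4 or day 5, of Nons on day 5 or of Smarcc1.7 on day 4, which shares the estimate of the spread. It was also lost without the block, and in a fit of Smarcc1.6 and Nons alone the adjusted p was 0.181.

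Pluripotency markers differed in the same comparison, in which 4 of the 8 markers were called higher in knockdown, namely Klf4 by 1.68, Zfp42 by 1.13, Dppa5a by 1.03 and Esrrb by 0.98 on the log2 scale. The summed level of the 8 on days 4, 5 and 7 was 10.8 to 11.4 log2 CPM in Nons, 11.1 to 12.02 in Smarcc1.6 and 10.8 to 11.8 in Smarcc1.7. It was 12.6 in Day0, and none of the 8 was at 0 in any group. Of the 4 fibroblast markers Col1a2 was called higher by 2.73. The summed level of the 4 on the same days was 3.01 to 6.44 in Nons, 5.04 to 7.53 in Smarcc1.6 and 4.25 to 7.54 in Smarcc1.7, with none at 0. The lists for cardiac and smooth muscle, mesoderm, endoderm, neural, and endothelial and blood cells had 0 calls, with 1, 1, 1, 0 and 1 genes at an unadjusted p under 0.05 in limma. The mesoderm markers had a median difference of -0.87. On days 4, 5 and 7 their summed level ran from 4.13 to 7.94 log2 CPM for Nons, from 4.22 to 5.73 for Smarcc1.6 and from 4.01 to 5.16 for Smarcc1.7. Their marker Mesp1 was at 0 in Day0. The part of any marker list in the difference of Cox7a1 was not tested.

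The promoter of Cox7a1 is shown because it is the member on which the knockdown comparison turns. The stretch that RefSeq places before its start on GRCm38.p6 (chr7:30183921-30184143, plus strand, without the part that overlaps an annotated exon) did not hold any of the 4 motifs given further on, so no letters are in capitals.
Cox7a1: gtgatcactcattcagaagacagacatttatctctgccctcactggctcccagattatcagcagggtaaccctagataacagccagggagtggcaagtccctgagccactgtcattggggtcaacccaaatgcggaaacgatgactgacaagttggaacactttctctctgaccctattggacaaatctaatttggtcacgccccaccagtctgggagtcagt

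Among the other members, the next differences were also those of isoforms expressed at low levels, and none passed. Cox7b2, a testis form of subunit 7b, differed by 0.70 (SE 0.35, adjusted p = 0.303). Ndufa4l2, the paralogue of Ndufa4 that is known to be induced when oxygen is low, differed by 0.63 (SE 0.26, adjusted p = 0.222), and Cox6b2, a testis form of subunit 6b, by 0.46 (SE 0.21). On the lower side, Ndufa5, an accessory subunit of complex I, differed by -0.26 (SE 0.10, adjusted p = 0.194) and Cox6b1, the ubiquitous form of subunit 6b, by -0.21 (SE 0.10, adjusted p = 0.268). Counted by sign alone, 7 members were higher in all 6 same-day comparisons with Nons (Cox7a1, Cox7b2, Ndufa4l2, Ndufb4, Ndufb5, Ndufb6 and Uqcr10), or 7.87%, against 9.95% of all genes tested. Another 7 were lower in all 6 (Atp5sl, Ndufa5, Ndufab1, Ndufs4, Sdha, Sdhaf2 and Sdhd), against 8.87% of all genes.

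The hairpins were also compared with each other and over time. Of the members 0 differed between Smarcc1.6 and Smarcc1.7 in limma, as did 0% of all genes tested, with 6 members (6.74%) and 336 genes (2.51%) at an unadjusted p under 0.05. The members' median difference between the hairpins was 0.10, with 76 of 89 positive, where all genes had a median of 0.02. For a change of the knockdown difference with day, 0 members were called against 2.03% of all genes, and at an unadjusted p under 0.05 there were 2 members (2.25%), Atp5d and Cox4nb, against 16% of all genes. Within days, the median difference of the members from Nons ran from -0.08 (Smarcc1.7, day 5) to 0.15 (Smarcc1.6, day 7), the latter with 74 of 89 members higher, while the medians of all genes on days 4, 5 and 7 ran from -0.04 to 0.02. On day 6 the members' medians were 0.09 for Smarcc1.6 and 0.16 for Smarcc1.7.

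More members were called between days of differentiation than between hairpins. Between days 4 and 7, 33 members rose and 18 fell with the deposited scaling, where 39.5% of all genes tested rose and 30.7% fell. The members' median difference was 0.12 and that of all genes 0.11. This split depends on the scale. Centring each library on the median of the genes tested shifted the median of all genes by 0.22 to -0.11. After it 21 members were called higher and 34 lower, where 31.3% and 39.9% of all genes were. All 21 of the former and all 18 original falls were called in both scalings, and 0 members changed direction between calls. Every day 7 library lay above every day 4 library for 36 members (41.2% of all genes) and below for 20 (32.3% of all genes).

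**Figure D2:**
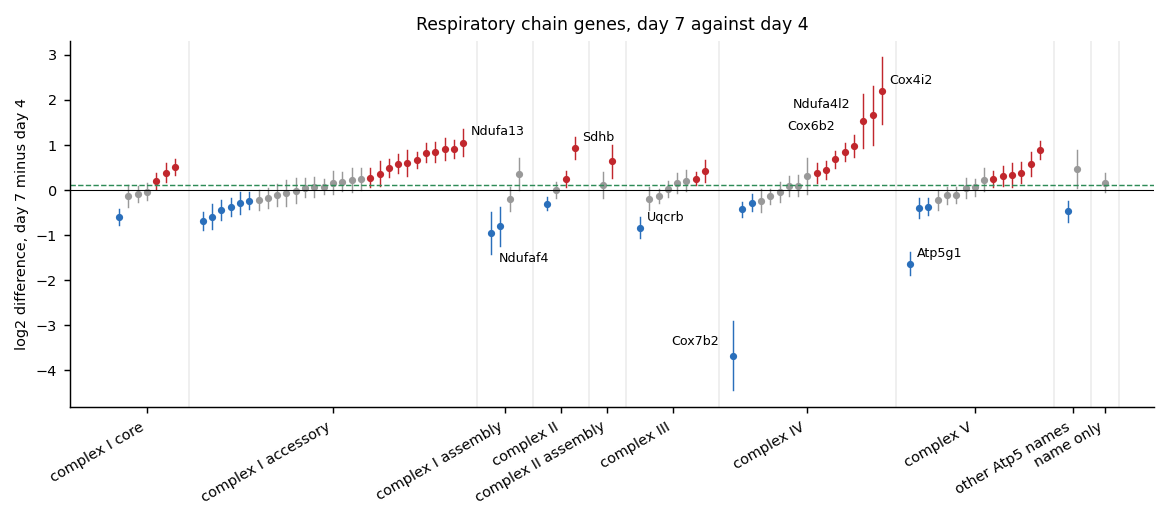
Fitted log2 difference of each member between day 7 (3 libraries) and day 4 (3 libraries), by complex, with 95% confidence intervals. Red and blue mark members called higher and lower at an adjusted p under 0.05, and the dashed line is the median of all genes tested (0.11). Cox4i2, Ndufa4l2 and Cox6b2 lie highest and Cox7b2 and Atp5g1 lowest, all but Atp5g1 in complex IV.

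More calls fell after day 5 than before it. From day 4 to day 5, 10 members rose and 1 fell, where 15.6% and 10.8% of all genes did, and from day 5 to day 7, 25 rose and 26 fell, where 33.7% and 29.2% of all genes did. With centred libraries these splits were 5 to 1, where 13.3% and 12.3% of all genes rose and fell, and 17 to 39, where 26.1% and 38.5% did. Over the earlier interval the named rises were those of Ndufv3 (0.55, SE 0.09) and Ndufab1 (0.55, SE 0.09) of complex I, of Atp5l (0.49, SE 0.10) and Atp5e (0.46, SE 0.09) of the ATP synthase, and of Ndufb2 (0.35, SE 0.10) of complex I. Uqcrb, a small subunit of complex III, fell by 0.39 (SE 0.10). The call for Uqcrb was lost without the variance trend (adjusted p = 0.0539) and when any 1 of the Smarcc1.6 and Smarcc1.7 libraries of days 4 and 5 was left out (0.0787 to 0.141). That for Ndufb2 was lost when any 1 of the same 4 libraries or the Nons library of day 4 was left out (0.0564 to 0.136), with centred libraries (0.0519) and without the block (0.0508). Atp5l was not called without the Smarcc1.6 library of day 4 (0.0529), without the Smarcc1.7 library of day 5 (0.0623) or with 12 libraries in the fit (0.057). Ndufv3, Ndufab1 and Atp5e were not called in limma without the Smarcc1.7 group (adjusted p = 0.0755, 0.0874 and 0.0863). Without the Smarcc1.6 group Ndufv3 and Atp5e were not called (0.0508 and 0.0656). Leaving out the Smarcc1.7 group left 0 members called higher, and leaving out the Smarcc1.6 group left 1. The count of 11 calls over this interval was 5 without the Smarcc1.6 library of day 4, 4 without that of Smarcc1.7, 7 without the Nons library of day 5, 6 without that of Smarcc1.6 and 3 without that of Smarcc1.7, the shallowest library.

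Complex I was mixed. Of its 29 accessory subunits 11 rose and 6 fell between days 4 and 7 (median difference 0.16), of its 7 core subunits 3 rose and 1 fell (-0.04), and of its 4 assembly factors 2 fell and 0 rose (-0.51). Counts by complex, here and below, are on the deposited scale, on which 39.5% of all genes rose and 30.7% fell. They were not made with centred libraries. Ndufa13, also known as GRIM-19, had 4.87, 4.92 and 4.83 log2 CPM on day 4 in Nons, Smarcc1.6 and Smarcc1.7, and 5.76, 5.97 and 6.04 on day 7. The groups of libraries did not overlap, and the rise was 1.05 (SE 0.13), or 0.83 with centred libraries. Ndufaf4, an assembly factor, had 5.33, 5.18 and 5.42 on day 4 and 4.70, 4.57 and 3.79 on day 7, with the lowest value in Smarcc1.7. It fell by 0.95 (SE 0.21), and Ndufaf2, another assembly factor, fell by 0.80 (SE 0.19). The adjusted p of Ndufaf2 was 0.0537 without the Smarcc1.7 libraries. The fall among core subunits was that of Ndufs1, the largest subunit of the complex, by 0.59 (SE 0.08), and it was picked out after its value was seen.

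In complex II, the succinate dehydrogenase that also serves the citrate cycle, the subunits did not move together. The iron-sulphur subunit gene Sdhb had 5.90, 5.91 and 5.90 log2 CPM on day 4 in Nons, Smarcc1.6 and Smarcc1.7 and 6.73, 6.97 and 6.82 on day 7. Sdha, for the flavoprotein that holds the active site, went from 7.81, 7.80 and 7.72 to 7.53, 7.45 and 7.45. Neither pair of days overlapped. Sdhb rose by 0.94 (SE 0.11) and Sdha fell by 0.30 (SE 0.07), while Sdhd, for a membrane anchor, differed by 0.00 with a 95% confidence interval of -0.18 to 0.18. Sdhb is named here because it contrasts with Sdha, which was seen in the values.

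Complex III had 2 rises and 1 fall among 8 genes, where 39.5% of all genes rose and 30.7% fell. The fall was that of Uqcrb, at 6.20, 6.39 and 6.37 log2 CPM on day 4, 6.05, 5.94 and 5.80 on day 5 and 5.39, 5.64 and 5.41 on day 7 in Nons, Smarcc1.6 and Smarcc1.7. The days did not overlap, and it fell by 0.84 between days 4 and 7 (SE 0.10, adjusted p = 9.92e-05). Uqcrb has 3 near-identical copies elsewhere in the genome, of which 1 (Gm5457) is among the genes of the table, so part of its reads could be assigned to them. In the same order of groups, Gm5457 had 2.51, 2.43 and 2.80 log2 CPM on day 4 and 1.62, 1.89 and 1.32 on day 7. The log2 of the summed CPM of both went from 6.30, 6.48 and 6.48 to 5.49, 5.74 and 5.49. Reads of the other copies could not be checked.

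Complex IV held the largest changes in both directions. Of its 17 members 8 rose and 3 fell between days 4 and 7, where 39.5% and 30.7% of all genes did, with a median difference of 0.31. The largest rise was that of Cox4i2, the form of subunit 4 known from lung and from cells short of oxygen. It had -0.28, -0.86 and -0.69 log2 CPM on day 4 in Nons, Smarcc1.6 and Smarcc1.7, -0.25, 0.12 and -0.22 on day 5, 0.86, 1.01 and 1.24 on day 6, and 1.75, 1.14 and 1.88 on day 7. All day 7 libraries lay above all libraries of days 4 and 5, and Day0 was lowest at -1.89. The rise was 2.20 (SE 0.33, adjusted p = 0.000334) on 27 to 49 reads on day 4 and 100 to 187 on day 7. Cox4i1 rose as well, by 0.68 (SE 0.08), and per kilobase of the shortest principal transcripts Cox4i2 made up 0.583% to 1.17% of the pair on day 7, against 0.267% to 0.382% on day 4.

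Ndufa4l2 and Cox6b2 followed Cox4i2 in size. Ndufa4l2 had 1.04, 1.41 and 1.56 log2 CPM on day 4 in Nons, Smarcc1.6 and Smarcc1.7, 1.72, 2.38 and 2.15 on day 5, and 2.40, 2.66 and 3.94 on day 7, so that Smarcc1.7 stood apart on day 7. It rose by 1.66 between days 4 and 7 (SE 0.29, adjusted p = 0.000831). Its rise after day 5 was 0.92 (adjusted p = 0.0217), which was not called without the Smarcc1.7 library of day 5 (0.66, adjusted p = 0.12) or of day 7 (0.52, adjusted p = 0.0852). Its paralogue Ndufa4, counted with complex IV, where the protein resides, differed by 0.10 with a 95% confidence interval of -0.12 to 0.32, and by -0.12 with centred libraries.

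Cox6b2 had 1.92, 2.65 and 2.55 log2 CPM on day 4, 2.03, 2.56 and 2.00 on day 5 and 3.61, 3.62 and 4.49 on day 7, in the same order of groups. Day 7 did not overlap the earlier days, and Day0 was at 3.95. The rise from day 4 was 1.53 (SE 0.26, adjusted p = 0.000714). The ubiquitous Cox6b1 rose too, by 0.98 (SE 0.11), from 5.36 to 5.54 on day 4 to 6.27 to 6.56 on day 7.

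**Figure D3:**
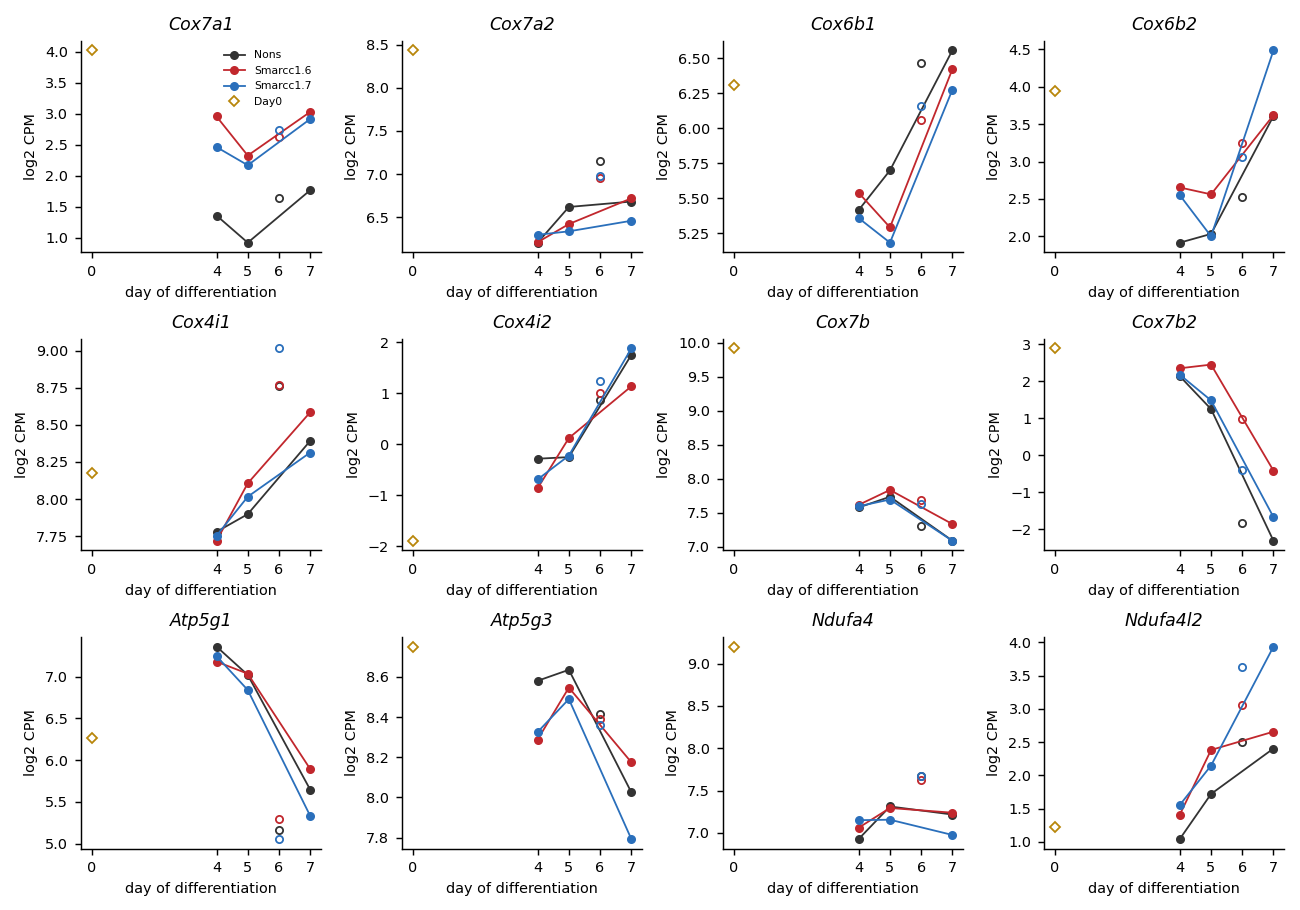
Log2 CPM by day of differentiation for pairs of isoforms or paralogues, 1 point per library. Lines join days 4, 5 and 7 of Nons (black), Smarcc1.6 (red) and Smarcc1.7 (blue), open circles are day 6 and the open diamond is Day0. Cox7a1 is separated by group, whereas for Cox4i2, Cox6b2 and Ndufa4l2 day 7 lies above days 4 and 5, and for Cox7b2 below.

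Cox7b2 moved in the opposite direction to these isoforms. It had 2.13, 2.35 and 2.17 log2 CPM on day 4 in Nons, Smarcc1.6 and Smarcc1.7, 1.24, 2.44 and 1.48 on day 5, -1.82, 0.99 and -0.41 on day 6, and -2.31, -0.42 and -1.67 on day 7. On each day Smarcc1.6 was highest and Nons lowest, and Day0 stood at 2.88. It fell by 3.68 between days 4 and 7 (SE 0.33, adjusted p = 2.1e-05), from 196 to 323 reads to between 6 and 44. Smarcc1.6 differed from Nons by 1.10 in Cox7b2 (SE 0.33, adjusted p = 0.133) and Smarcc1.7 by 0.30 (SE 0.33, adjusted p = 0.741).

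Its somatic partner Cox7b is X-linked and fell less. Cox7b had 7.58, 7.62 and 7.60 log2 CPM on day 4 and 7.09, 7.34 and 7.09 on day 7, and it fell by 0.43 (SE 0.07). The other X-linked members, both of complex I, were Ndufa1, which fell by 0.59 (SE 0.12), and Ndufb11, which differed by 0.08 with a 95% confidence interval of -0.08 to 0.24. The 507 X-linked genes tested had a median difference of -0.26 over the same days, with 144 higher and 238 lower. None of the 3 members was called for knockdown, with 0 at an unadjusted p under 0.05 in limma. Their differences lay between -0.06 and 0.06. Among the 507 genes on the X chromosome, knockdown gave 16 calls upward and 10 downward, against 217 and 70 among all 13406. An unadjusted p under 0.05 in limma was reached by 31.8% of the 507 and by 19.7% of all genes tested. With 3 members, a count of 0 cannot show how X-linked genes responded to knockdown.

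Within subunit 7a only the muscle form was called for knockdown, and the widely expressed forms were called between days 4 and 7. Cox7a2 rose by 0.38 between days 4 and 7 (SE 0.10), a call that was lost with centred libraries (0.16, adjusted p = 0.164), and Cox7a2l, which helps join complexes III and IV, rose by 0.85 (SE 0.09). Cox7a1 differed by 0.31 over those days, with a 95% confidence interval of -0.09 to 0.72, although it rose by 0.76 from day 5 to day 7 (SE 0.18). Per kilobase, Cox7a1 made up 3.95% to 10.6% of the 3 genes on day 4 and 3.42% to 7.87% on day 7, the lowest share being that of Nons.

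Complex V turned on the genes for its c subunit. Atp5g1, Atp5g2 and Atp5g3 encode the same mature protein, which forms the membrane ring of the synthase, with different import sequences. Atp5g1 had 7.36, 7.18 and 7.24 log2 CPM on day 4 in Nons, Smarcc1.6 and Smarcc1.7, 7.02, 7.03 and 6.84 on day 5, and 5.65, 5.89 and 5.33 on day 7. The days did not overlap. It fell by 1.64 between days 4 and 7 (SE 0.11, adjusted p = 5.15e-06).

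The other genes of the ring differed from it. Atp5g2 had 6.22, 6.14 and 6.25 log2 CPM on day 4 and 6.59, 6.76 and 6.99 on day 7 and rose by 0.58 (SE 0.11), and Atp5g3 went from 8.58, 8.29 and 8.33 to 8.03, 8.18 and 7.79 and fell by 0.40 (SE 0.09). The call for Atp5g3 was lost without the Smarcc1.7 libraries (-0.33, adjusted p = 0.0685). Per kilobase of the shortest principal transcripts, the share of Atp5g1 in the sum of the 3 went from 28.1% to 29.0% on day 4 to 10.2% to 13.3% on day 7, and that of Atp5g2 from 17.3% to 19.7% to 32.7% to 43.2%. With the longest transcripts the share of Atp5g1 was 5.22% to 5.54% and then 1.75% to 2.25%, so the order of the levels depends on the transcript assumed while the direction does not. Atp5g1 and Atp5g2 have processed copies, which are not told apart from them with certainty.

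Of the 15 members of complex V 6 rose and 3 fell between days 4 and 7, where 39.5% and 30.7% of all genes did, with a median of 0.07. Atp5e, for the small epsilon subunit of the central stalk, rose by 0.89 (SE 0.09), from 5.85 to 5.92 log2 CPM on day 4 to 6.68 to 6.94 on day 7. Atp5a1, for the alpha subunit, fell by 0.37 (SE 0.08), and Atp5b differed by -0.11 with a 95% confidence interval of -0.28 to 0.07. Atp5e and Atp5a1 were picked out for their roles in the catalytic part after their values were seen.

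Genes that work with the respiratory chain were described with the same fits. The protein genes of the mitochondrial genome, which supply the remaining subunits, fell together, as all 11 tested were lower on day 7 than on day 4, with a median of -1.32. Of the nuclear complexes' partners, the 76 mitochondrial ribosome genes had 15 rises and 35 falls (median -0.25), whereas the 81 cytosolic ribosome genes had 62 rises and 8 falls (0.49). The lists of 12 complex IV assembly factors and 13 coenzyme Q synthesis genes had 1 and 2 rises and 5 falls each (medians -0.20 and -0.18), and the 14 citrate cycle genes 5 and 5 (-0.08). The short lists gave 2 rises and 0 falls of 5 electron carriers, 3 and 3 of 8 other complex I assembly factors, 1 and 2 of 3 complex III assembly factors and 3 and 1 of 5 complex V assembly and regulatory genes. All these counts and medians are on the deposited scale, on which 39.5% of all genes rose, 30.7% fell and the median was 0.11. In Nons, Smarcc1.6 and Smarcc1.7, mt-Co1, for the catalytic subunit of complex IV, had 12.62, 12.44 and 12.52 log2 CPM on day 4 and 11.73, 11.23 and 11.33 on day 7, without overlap.

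**Figure D4:**
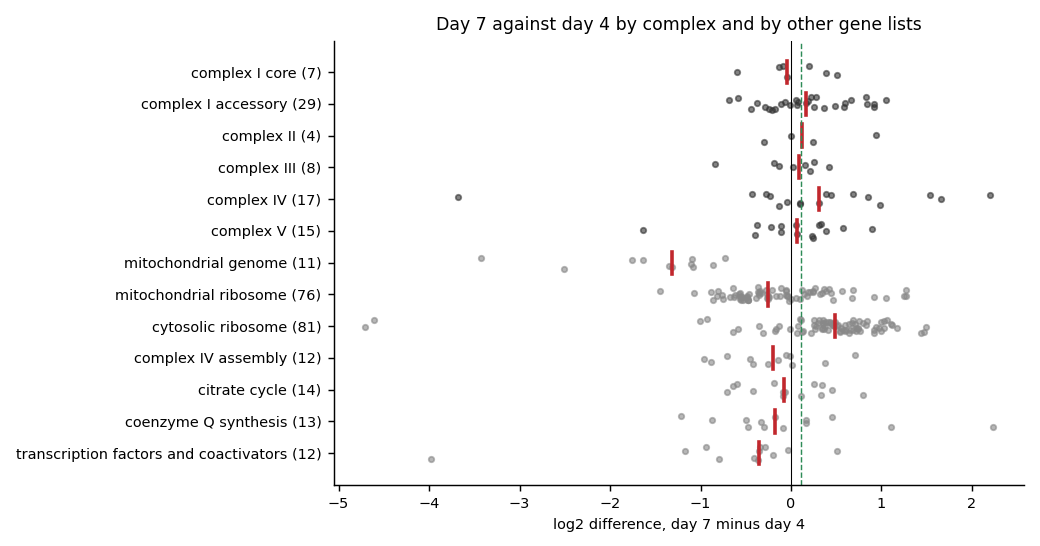
Log2 difference between day 7 and day 4 for each gene of the complexes (black) and of other lists (grey), with the number of genes tested in parentheses. Red bars are medians, the solid line is 0 and the dashed line the median of all genes tested (0.11). The mitochondrial genome lies lowest with a median of -1.32 and the cytosolic ribosome highest with 0.49.

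For knockdown, in limma 0 genes were called in any of these lists, with 1 of the electron carriers, 2 of complex IV assembly, 1 of coenzyme Q synthesis, 2 of the citrate cycle, 3 each of the mitochondrial and cytosolic ribosome, 2 of the mitochondrial genome and 0 of the other lists at an unadjusted p under 0.05, a level that 19.7% of all genes tested reached. Among 12 transcription factors and coactivators of respiratory genes, Esrrb was called higher, by 0.98 (SE 0.18, adjusted p = 0.0290), and it is also 1 of the pluripotency markers. Between days 4 and 7, 8 of these 12 fell and 1 rose, where 30.7% and 39.5% of all genes did, with a median of -0.36. Esrrb, an orphan nuclear receptor of naive pluripotency, fell by 3.98, Gabpa, the DNA-binding subunit of GABP, fell by 1.17, and Pprc1, a coactivator, fell by 0.80, whereas Gabpb1, the partner of Gabpa, rose by 0.51.

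Promoters were searched for the DNA motifs of 4 of these factors, since they are the ones known for respiratory genes. RefSeq promoters, taken as 250 bases before to 50 after the start, were found for 75 of 89 members and 10298 genes tested, on GRCm38.p6, and both strands were read. The NRF1 motif GCGCATGCG, whose matches on the 2 strands overlap in its palindromic core, was in 9 member promoters (12%) and 3.83% of all. The ETS motif of GABP, CCGGAAG, was in 18 (24%) and 18.2%, the YY1 motif AAGATGGCG in 7 (9.33%) and 3.23%, and the motif of estrogen-related receptors such as Esrrb, TCAAGGTCA, in 2 (2.67%) and 0.243%. The YY1 matches lay 22 to 35 bases after the start, in Atp5j2, Atp5sl, Ndufa9, Ndufc1, Ndufs4, Ndufs6 and Ndufs7. A match is a run of letters and no evidence of binding.

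The stretches below show examples of the NRF1, ETS and receptor motifs, read along the strand of the gene with the motif in capitals. Ndufaf4 (chr4:24897946-24898003, plus) holds NRF1, Atp5l (chr9:44920922-44920992, minus) holds NRF1 and then ETS, Atp5e (chr2:174464171-174464227, minus) holds ETS, and Atp5g3 (chr2:73911346-73911402, minus) holds the receptor motif.
Ndufaf4: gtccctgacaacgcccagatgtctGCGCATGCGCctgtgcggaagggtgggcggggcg
Atp5l: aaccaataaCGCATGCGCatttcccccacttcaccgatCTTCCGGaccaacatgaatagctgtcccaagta
Atp5e: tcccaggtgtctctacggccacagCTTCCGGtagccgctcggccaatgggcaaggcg
Atp5g3: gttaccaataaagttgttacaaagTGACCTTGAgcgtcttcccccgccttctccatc
Between days 4 and 7 Ndufaf4 and Atp5g3 fell, by 0.95 and 0.40, and Atp5e and Atp5l rose, by 0.89 and 0.39, so members with these motifs went in both directions. Sdhd, the other member with the receptor motif, differed by 0.00.

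On day 6 some members were low where their processed copies were high. Relative to the mean of days 5 and 7, 11 members (12.4%) were lower by 1 log2 unit or more in all 3 groups, against 2.47% of all genes tested. Those members were Atp5g1, Atp5g2, Atp5h, Atp5l, Cox5b, Cox7c, Ndufab1, Ndufb4, Ndufs3, Ndufs5 and Uqcrb. All 11 have a near-identical copy in a single exon elsewhere in the genome, as do 12 of the other 78. For Atp5g1, Cox7c, Ndufb4, Ndufs3 and Ndufs5 no copy was among the genes of the table, so the level of their copies could not be checked. The median shift over the groups was -6.10 for Atp5l, -5.99 for Atp5g2, -4.67 for Ndufb4, -3.32 for Cox5b and -2.99 for Ndufs5. In the other direction the shifts were smaller, at most 0.68 for Uqcrq, followed by 0.64 for Ndufs8 and 0.62 for Cox4i1.

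Stretches of the coding sequence show how alike the copies are, with the bases that differ in capitals. Cox5b (chr1:36692451-36692540, plus) and its copy Gm11273 (chr13:21501152-21501241, minus) differ at 2 of 90 bases, as do Atp5h (chr11:115415789-115415878, minus) and Gm10250 (chr15:5120691-5120780, minus), on GRCm38. Atp5l (chr9:44914722-44914811, minus) and Gm10221 (chr5:24581721-24581810, minus) share all 90, and the run is given once.
Cox5b: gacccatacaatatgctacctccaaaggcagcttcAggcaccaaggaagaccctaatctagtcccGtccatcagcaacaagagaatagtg
Gm11273: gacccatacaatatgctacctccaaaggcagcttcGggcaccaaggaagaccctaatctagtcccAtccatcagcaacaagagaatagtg
Atp5h: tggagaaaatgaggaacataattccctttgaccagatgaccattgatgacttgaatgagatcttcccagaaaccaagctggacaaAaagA
Gm10250: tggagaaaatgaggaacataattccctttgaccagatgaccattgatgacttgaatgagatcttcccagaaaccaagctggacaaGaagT
Atp5l and Gm10221: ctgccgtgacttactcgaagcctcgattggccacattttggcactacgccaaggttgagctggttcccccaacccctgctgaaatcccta

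Cox5b, a nuclear subunit of complex IV, had 6.07 to 6.48 log2 CPM on days 4, 5 and 7, 2.99 to 3.25 on day 6 and 3.05 in Day0. Its copy Gm11273 had 3.45 to 3.89 on days 4, 5 and 7, 5.92 to 6.19 on day 6 and 5.83 in Day0. The ranges exchanged places, and the log2 of the summed CPM of both differed on day 6 from the mean of days 5 and 7 by -0.44, -0.39 and -0.08 in Nons, Smarcc1.6 and Smarcc1.7.

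The same exchange was seen for Atp5l and Atp5h, subunits of the membrane part and the peripheral stalk of the synthase. Gm10221 went from 3.94 to 4.48 on days 4, 5 and 7 to 6.07 to 6.31 on day 6, and Gm10250 from 4.24 to 4.79 to 6.66 to 6.83. With all copies in the table added, the shifts of the sums were -0.36, -0.36 and -0.05 for Atp5l and 0.10, 0.03 and 0.42 for Atp5h. For Atp5g2 the sums stayed -5.05, -5.09 and -4.86 below, since its copies Gm10175 and Gm10231 did not exceed 0.84 log2 CPM in any library. Ndufab1 and Uqcrb were not restored either, with shifts of the sums of -1.96, -1.78 and -1.97 and of -1.64, -1.63 and -1.35. Where those reads were counted was not tested, and day 6 was kept out of the tests above.

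**Figure D5:**
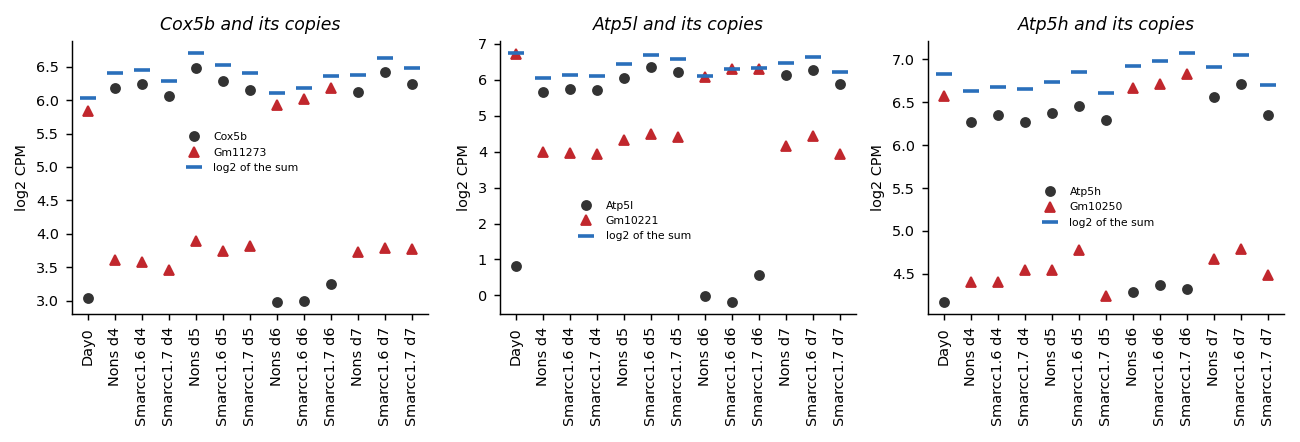
Log2 CPM of Cox5b, Atp5l and Atp5h (circles), of their main processed copy (triangles) and the log2 of the summed CPM with all copies in the table (bars), in each library. In Day0 and on day 6 the copy lies above the gene and in the other 9 libraries below it, while the sum moves by less than 1 log2 unit.

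Day0 was set against day 6, the libraries that share this read assignment, without a test, as Day0 was 1 library. The members' median difference between Day0 and the mean of day 6 was 0.25, where that of all genes tested was -0.14. Day0 lay above every day 6 library for 53 members (59.6%), against 34.3% of all genes tested, and below for 17 (19.1%), against 50.3%. By more than 1 log2 unit it lay above for 14 members, where 8.03% of all genes did, and below for 2, where 17.3% did.

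Forms of complex IV subunits led in both directions. Against the mean of day 6, Cox7b2 was higher in Day0 by 3.29, with a range over the day 6 libraries of 1.89 to 4.70. Cox7b was higher by 2.38 (2.23 to 2.62), Cox6c by 2.28 (2.23 to 2.34) and Cox7a1 by 1.69 (1.28 to 2.38), and the accessory complex I subunit Ndufa6 by 1.68 (1.56 to 1.82). Against the Smarcc1.6 library of day 6 the difference for Cox7b2 was below those for Cox7b and Cox6c. Cox7b, for instance, had 9.92 log2 CPM in Day0 and 7.30 to 7.69 on day 6. Cox7b and Cox6c have 2 near-identical copies each, none of them among the genes of the table, so the level of these copies could not be checked. Relative to the mean of days 5 and 7, Cox6c itself was shifted on day 6 by -1.08, -1.06 and -0.96 in Nons, Smarcc1.6 and Smarcc1.7. The 2 members lower by more than 1 were Cox4i2 (-2.93, range -3.13 to -2.76) and Ndufa4l2 (-1.84, range -2.41 to -1.28). Both also rose between days 4 and 7, in libraries that this contrast did not use.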

How the data were processed

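The authors extracted RNA, sequenced it and deposited 1 table of log2 CPM values per gene, and the submitters' processing notes name bcl2fastq, TopHat2 2.0.12 and mm10. The study's methods also name hisat2. The strand setting and annotation of the counting are not given in the sources used here. Low values were whole multiples of 1 read (100% within 0.05 read), which gave each library's depth, and 0 reads were written as 0.9 reads. The filter of log2 CPM 0 on the mean of days 4 to 7 decided which genes were tested. Linear models were fitted across all 13406 genes with limma 3.58.1 in R 4.3.3 (eBayes with trend) on the 9 libraries of days 4, 5 and 7, with Benjamini-Hochberg adjusted p-values and a threshold of 0.05. Knockdown and hairpin fits had day as a block, since the day pairs the libraries, and day fits had the group. No pseudocount was added. All tests are two-sided, and intervals are 95%.

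The limma fits were tested on simulated data, drawn at the recovered depths with the same spread for every gene. Python 3.11.15, numpy 2.4.6 and pandas 2.3.3 were used. Coordinates and transcript lengths came from GENCODE M21 and promoters from RefSeq. A copy is a single-exon gene with at least 95% identity over 150 bases. The members, the gene lists and the tests were chosen with earlier results of these data known. Named genes were those past the threshold with the same sign in all same-day or same-group differences (the 5 largest each way per comparison, or the 2 largest where none passed), X-linked members, isoform families, the highest and lowest member of each complex, the 5 largest day 6 shifts each way and at most 3 called genes per list. Alternatives changed the filter, scaling, variance trend, block, days and libraries.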

Additional observations from a re-analysis of the deposited data

Results flagged for a closer look

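In groups of 4 days, a library was flagged where its gap to the nearest other exceeded Dixon's limit, which chance does for about 1 group in 20. Among 144 tests of 48 named members, 20 groups were flagged, 18 of them on day 6 and 16 of these low. The named members included those chosen for the largest day 6 shifts and the lowest of each complex, whose means day 6 enters. The number flagged on day 6 was therefore set in part by this choice and cannot be held against that rate.

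The low values on day 6 belonged to 6 members with processed copies. In Nons, Smarcc1.6 and Smarcc1.7 these were, in log2 CPM, 0.48, 0.54 and 1.16 for Atp5g2, -0.0084, -0.17 and 0.56 for Atp5l, 2.99, 2.995 and 3.25 for Cox5b, 3.79, 3.86 and 3.76 for Ndufs3 and 2.12, 2.26 and 2.52 for Ndufs5, and in Nons alone -0.28 for Ndufb4. The other days of Atp5g2 lay between 6.13 and 6.99. High on day 6 were Cox4nb (7.73) and Sdhd (7.43), both in Nons. Low on day 7, both in Smarcc1.7, were Cox7b at 7.09, against 7.60 to 7.70 on its other days, and Ndufaf2 at 2.66, against 3.65 to 3.82.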

How the results depend on the processing

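Over 65 results and 1185 alternatives, 1087 kept their direction and side of the threshold or stayed within 1.5 times the count, 42 lost and 4 gained a call, 25 changed sign and 27 counts moved. The causes were not tested.

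For knockdown the count of members was 1 and became 0 with no replicate block, with Smarcc1.6 only and with Smarcc1.7 only, and 0 to 1 when a library or day was left out, being 0 without Smarcc1.6 of day 4, Nons of day 5 or all of day 5. Calls among all genes ran from 0 to 1561 (217 higher and 70 lower as reported), with 75 without the variance trend. Smarcc1.6 against Nons gave 3 members with all of days 4 to 7, 0 without the block and 0 to 1 in leave-outs, and Smarcc1.7 gave 1 with all days and 0 to 1. Day 5 against day 4 gave 6 with centred libraries, 7 without the trend, 7 without the block of group and 0 to 16 in leave-outs. In leave-outs day 7 against day 5 gave 28 to 51 and day 7 against day 4 gave 36 to 54. Centred libraries gave 17 higher and 39 lower for the former (26.1% and 38.5% of all genes), and 21 and 34 for the latter (31.3% and 39.9%).

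Signs turned only for members near 0. In knockdown these were Cox6a1 (0.084), Ndufa4 (0.046) and Atp5g1 (0.027) with Smarcc1.6 only, Ndufa1 (-0.095) and Cox7b (-0.0081) with Smarcc1.7 only, and Ndufb11 (0.019) with all days. Leaving out libraries gave -0.074 to 0.055 for Cox6a1, -0.098 to 0.045 for Ndufa4, -0.068 to 0.066 for Ndufa1 and -0.094 to 0.13 for Atp5g2. Day 7 against day 4 turned with centring for Ndufb11 (-0.14) and Ndufa4 (-0.12). With 63 reads behind Cox7a1 in the shallowest library, its value there carries the most counting error.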
